A study of Homo sapiens with 9 samples.

Results

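Keratins are the intermediate filament proteins of epithelial cells. The family comprised 48 of the 14884 genes measured here, chosen as every gene symbol of the array's probe annotation made of KRT, a number and at most 1 letter, with the brightest probeset taken where a gene had several. They split into 26 type I keratins, 21 type II keratins and KRT42P, a transcribed pseudogene that the naming rule admits. RefSeq lists 8 further protein-coding keratins, KRT6A, KRT6B, KRT17, KRT34, KRT81, KRT82, KRT86 and KRT222, which have no named probeset in the annotation used and were not analysed here. KRT18 had 2 probesets and every other keratin 1.

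ZR-75-1, a breast cancer cell line that carries the estrogen receptor, was transfected with a lipid reagent, and RNA taken 48 h later was read on 9 Affymetrix Human Gene 2.0 ST arrays. Of 3 groups with 3 arrays each, the first received 50 nM of a mimic of the microRNA miR-150-5p, the second received 50 nM of a nonspecific negative control RNA, and the third received the lipid alone (mock). Lipid exposure and a change of medium at the midpoint were common to all groups. Whether the triplicates were separate cultures is not said in the labels, and the p-values then reflect only how far these samples spread, which may be technical.

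Keratin filaments are built from pairs of 1 type I and 1 type II protein, so a cell that makes a filament needs at least 1 gene of each type. Simple, single-layered epithelia such as the luminal layer of the breast use KRT8 as the type II partner and KRT18 or KRT19 as the type I partner. Basal and myoepithelial cells of the breast use KRT5, KRT14 and KRT17, and the other keratins are known chiefly from epidermis, mucosa, cornea and hair. The type II genes lie together in 1 cluster on chromosome 12 and the type I genes in another on chromosome 17, except KRT18, which sits beside KRT8 at the edge of the type II cluster. In RefSeq, 22 of the keratins measured, KRT18 among them, were on chromosome 12 and 26, KRT42P among them, on chromosome 17.

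RefSeq promoter sequences (build GRCh38.p14) were matched for 32 of the 48 keratins. Not matched were KRT1, KRT6C, KRT7, KRT13, KRT14, KRT15, KRT16, KRT18, KRT19, KRT23, KRT42P, KRT72, KRT77, KRT78, KRT80 and KRT83. The 250 bases before the start site were searched for TATAAA, the core of the TATA box, and for GGGCGG, the GC box. Between 20 and 40 bases upstream of the start, on the gene's strand, TATAAA stood in 14 of 32 keratin promoters (43.8%), against 3.58% of the 15843 promoters of protein-coding genes. It was found there in 11 of 19 type I promoters and in 3 of 13 type II promoters. Hair and inner root sheath keratins made up 20 of the 32 promoters and had it in 10, and the 12 other keratins in 4. On either strand and anywhere in the window, TATAAA was present in 56.3% of keratin promoters, against 9.23% of all, and GGGCGG in 12.5%, against 56.0%. Of these promoters 4 are shown because the results below turn on their genes. These are KRT8, the luminal type II keratin (chr12:52926470-52926719, minus strand), and KRT5, a basal type II keratin (chr12:52520395-52520644, minus strand). KRT5 carried 1 identical low value on 7 of the 9 arrays. The others are KRT27 and KRT31, the keratins of the hair follicle with the lowest p against the negative control (chr17:40782551-40782800 and chr17:41397609-41397858, both minus strand). Capitals mark TATAAA, and the run ends at the base before the start site.
KRT8: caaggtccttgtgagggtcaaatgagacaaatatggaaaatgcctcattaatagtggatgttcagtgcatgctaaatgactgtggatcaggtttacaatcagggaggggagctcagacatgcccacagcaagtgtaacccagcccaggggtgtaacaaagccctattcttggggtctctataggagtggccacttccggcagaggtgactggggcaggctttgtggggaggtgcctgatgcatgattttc
KRT5: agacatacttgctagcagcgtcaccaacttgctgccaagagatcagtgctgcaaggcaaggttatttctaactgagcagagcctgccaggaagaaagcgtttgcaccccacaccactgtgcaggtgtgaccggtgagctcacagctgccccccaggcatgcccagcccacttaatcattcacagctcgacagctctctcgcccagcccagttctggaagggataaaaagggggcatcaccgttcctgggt
KRT27: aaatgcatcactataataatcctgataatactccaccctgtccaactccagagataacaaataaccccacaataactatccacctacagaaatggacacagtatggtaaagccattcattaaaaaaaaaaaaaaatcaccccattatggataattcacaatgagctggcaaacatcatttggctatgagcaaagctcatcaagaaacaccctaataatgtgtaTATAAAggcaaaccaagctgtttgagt
KRT31: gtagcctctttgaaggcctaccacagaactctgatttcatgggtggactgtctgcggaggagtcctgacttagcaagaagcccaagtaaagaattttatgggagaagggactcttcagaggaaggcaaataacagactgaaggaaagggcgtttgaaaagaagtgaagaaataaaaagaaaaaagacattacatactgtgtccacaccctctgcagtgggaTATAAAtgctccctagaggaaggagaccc
The TATAAA of KRT27 began 27 bases and that of KRT31 29 bases upstream of the start site. Neither motif occurred in the windows of KRT8 and KRT5, which says only that these letters are not in these windows.

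Intensities are log2 values normalized by the authors with RMA, and 1 unit is a 2-fold difference in signal. The brightness of a probeset depends on its probes as well as on the transcript, so the levels below place a probeset on the array and do not measure one keratin against another. The median of an array, over its 53617 probesets, was 4.22 to 4.27, and the median of the gene means was 5.44. The table holds no detection call, so low values cannot be separated from background gene by gene. The number of arrays limits the precision.

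Of the 3 simple epithelial keratins expected of luminal cells, KRT18 and KRT19 gave bright signals in all 3 groups and KRT8 a lower one. KRT18 read 11.99, 11.99 and 12.14 on the mimic arrays, 12.05, 12.09 and 12.08 on the negative control arrays and 12.11, 12.13 and 12.08 on the mock arrays. Only 0.0537% of all genes had a brighter mean. These values are from the brighter of the 2 KRT18 probesets. Whether either probeset also picks up signal from other loci was not tested. The other had a mean of 8.70, brighter than 92.9% of genes, so the rank of KRT18 depends on the probeset. KRT19, the smallest type I keratin and a partner of KRT8, read 11.08, 11.22 and 11.20 on the mimic arrays, 11.22, 11.22 and 11.33 on the negative control arrays and 11.22, 11.29 and 11.17 on the mock arrays, and 0.282% of genes were brighter. KRT8 read 6.92, 6.95 and 6.99 on the mimic arrays, 6.94, 6.95 and 6.97 on the negative control arrays and 6.98, 6.88 and 6.95 on the mock arrays. The KRT8 probeset, which the annotation ties to a non-coding transcript variant of the gene, was thus in the upper part of the array but below 27.4% of genes. In bulk RNA, fewer cells of a type and less RNA per cell cannot be told apart. In none of these 3 genes did the mimic arrays separate from those of either control.

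Only 7 of 48 keratins (14.6%) had a mean above the median of all genes. Besides KRT18, KRT19 and KRT8 these were KRT80 (mean 8.77, brighter than 93.4% of genes), a type II keratin of epithelial cells that is found near cell junctions, KRT15 (6.14), a type I keratin of basal layers, KRT4 (5.71), the type II keratin of mucosal epithelia, and KRT85 (5.59), a type II hair keratin. KRT23 (5.25), an epithelial type I keratin, and KRT7 (4.64), a type II keratin of glandular epithelia that often marks breast carcinoma, lay below that median, as did KRT20 (3.17), the keratin of intestinal epithelium.

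**Figure D1:**
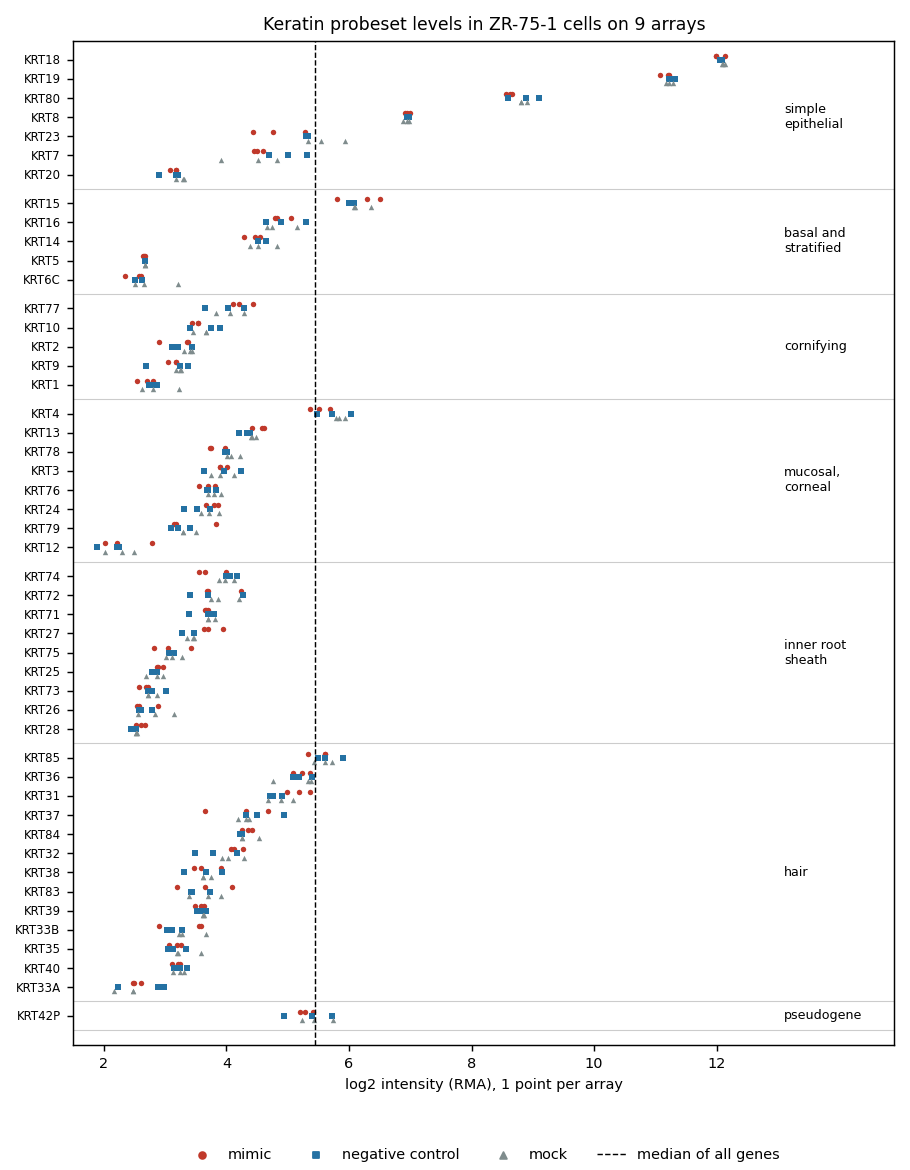
Level of each of the 48 keratins, grouped by the epithelium in which it is known, on the 3 mimic, 3 negative control and 3 mock arrays. The horizontal axis is log2 intensity, each point is 1 array, and the dashed line is the median of all gene means, 5.44. KRT18, KRT19, KRT80 and KRT8 stand clearly to the right of the line, and most keratins of skin and hair lie to its left. KRT18 is shown by the brighter of its 2 probesets.

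KRT80 stood high on the array in all groups. Its values were 8.62, 8.57 and 8.65 on the mimic arrays, 9.11, 8.60 and 8.89 on the negative control arrays and 8.90, 8.80 and 8.80 on the mock arrays. All 3 mimic arrays lay below all 3 mock arrays. They overlapped the negative control, whose replicate 2 lay within the range of the mimic arrays.

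The 5 measured keratins of the basal and stratified class lay below the median of all genes, with 1 exception. KRT17, a basal keratin of the breast, was not analysed here, nor were KRT6A and KRT6B. KRT5 read 2.67 on 7 of the 9 arrays, with 1 identical value in the table, and 2.64 and 2.66 on mimic replicates 2 and 3. That is below 94.3% of genes. KRT14, its usual type I partner, had a mean of 4.52 and KRT16, a keratin of activated epidermis, of 4.89, both below the median of all genes. KRT6C had a mean of 2.62. The exception, KRT15, read 5.80, 6.30 and 6.51 on the mimic arrays, 6.09, 6.0 and 6.03 on the negative control arrays and 6.35, 6.10 and 6.09 on the mock arrays. The mimic arrays spanned the values of both control groups. Of the 14 basal and myoepithelial markers other than keratins that were listed, 4 were measured. OXTR (6.49) and EGFR (5.85) lay above the median of all genes, and TAGLN (4.59) and MYLK (4.36) below it. The defining markers TP63, ACTA2 and MYH11 were not analysed here.

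The 5 keratins of cornifying epidermis had means from 2.79 (KRT1) to 4.10 (KRT77), and the 9 of the inner root sheath and companion layer of the hair follicle from 2.54 (KRT28) to 3.93 (KRT74). Both classes lay wholly below the median of all genes. Among the 8 mucosal, corneal and related keratins the range was 2.24 (KRT12, the corneal type I keratin) to 5.71 (KRT4), and among the 13 hair keratins 2.53 (KRT33A) to 5.59 (KRT85). KRT4 read 5.36, 5.68 and 5.52 on the mimic arrays, 6.04, 5.49 and 5.72 on the negative control arrays and 5.84, 5.93 and 5.79 on the mock arrays. KRT85 read 5.60, 5.60 and 5.33 on the mimic arrays, 5.91, 5.60 and 5.49 on the negative control arrays and 5.72, 5.42 and 5.60 on the mock arrays, with 1 identical value on 4 arrays. The 84 keratin-associated protein genes, which encode the matrix of the hair shaft and were added for comparison after the values were seen, had a median of 3.19 and a 95% quantile of 6.51 over their means. In all, 44 of the 48 keratins (91.7%) were at or below that value, as were 66.2% of all genes. The value is not a detection limit, and the brightest gene of that list, KRTAP5-7, had a mean of 8.22. The 4 keratins above 6.51 were KRT8, KRT18, KRT19 and KRT80. KRT33A and KRT33B, KRT6C and its unmeasured copies, KRT14 and KRT16, and KRT83 and its relatives are closely similar in sequence, so their probesets may share signal and are uncertain.

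The 3 luminal keratins varied little between arrays. Over the 9 arrays the SD was 0.03 for KRT8, 0.05 for KRT18 and 0.07 for KRT19, against a median of 0.14 over all genes. Only 0.887%, 5.04% and 9.99% of genes had a smaller SD. KRT19 carried 1 identical deposited value on 4 arrays, KRT8 on 3 and KRT18 on 2, and the effect of such ties on the SD was not tested. KRT5 had the smallest SD of the family, 0.011, at a dim level. At the other end, KRT23 (SD 0.43) and KRT7 (0.39) varied more than 99.4% and 98.9% of genes. Over the family the median SD was 0.19.

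Setting the mimic against the negative control RNA, both at 50 nM, addresses whether keratin transcripts differ with miR-150-5p. No keratin passed an adjusted p of 0.05 (limma, Benjamini-Hochberg over all 14884 genes). Of all genes 82 did, or 0.551%, a number that changed with the setting (closing section). At that share a family of 48 would often hold no call. At an unadjusted p under 0.05 there were 6 of 48 keratins, which is 12.5%, against 12.6% of all genes. Of these 3 were higher and 3 lower in the mimic arrays, where 6.18% and 6.39% of all genes were. The 95% interval lay within 1.5-fold in either direction for 37 of 48 keratins and within 2-fold for all 48. The median log2 difference of the family was -0.0046, against 0.01 over all genes, and 27 keratins had a negative difference, as did 46.5% of all genes.

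For the 3 luminal keratins the differences were small and had narrow intervals. KRT8 differed by -0.00077 ± 0.06 (SE, n = 3 arrays per group), with a 95% interval from -0.14 to 0.14, KRT18 by -0.03 ± 0.07 (-0.18 to 0.12) and KRT19 by -0.09 ± 0.07 (-0.25 to 0.07). The lower bounds correspond to 0.908, 0.881 and 0.841 of the negative control signal. In limma's test the adjusted p-values were 0.998, 0.883 and 0.655. The second KRT18 probeset, at a mean of 8.70, differed by -0.02 ± 0.08. It read 8.54, 8.71 and 8.83 on the mimic arrays, so mimic replicates 1 and 3 lay on either side of all 6 control arrays, which spanned 8.69 to 8.73.

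Among the other simple epithelial keratins, KRT7 and KRT23 showed the largest differences below the negative control. KRT23 read 4.44, 5.29 and 4.76 on the mimic arrays and 5.31, 5.32 and 5.31 on the negative control arrays. The groups did not overlap, but mimic replicate 2 was only just below the negative control. The mimic arrays spread over 0.43 (SD) against 0.01, where negative control replicates 1 and 3 shared 1 identical value. The difference was -0.48 ± 0.21, or 1.40-fold lower, with an unadjusted p = 0.0411 and an adjusted p = 0.374 in limma's test. Without mimic replicate 1 it was -0.29, and without mimic replicate 2 it was -0.71. KRT7 read 4.59, 4.45 and 4.49 on the mimic arrays and 5.31, 5.01 and 4.70 on the negative control arrays, again without overlap. It differed by -0.49 ± 0.22, or 1.41-fold lower, with an adjusted p = 0.395 in limma's test. KRT80 differed by -0.25 ± 0.11 (adjusted p = 0.405 in the same test), and by -0.13 without negative control replicate 1 or -0.38 without negative control replicate 2. Of the 7 keratins of this class 6 had a negative difference, KRT8 among them at a value whose sign turned in 3 of 17 alternatives. The mean of KRT8, KRT18 and KRT19 was 10.00, 10.05 and 10.11 on the mimic arrays, 10.07, 10.08 and 10.13 on the negative control arrays and 10.10, 10.10 and 10.07 on the mock arrays. The mimic arrays overlapped both controls in this mean.

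Keratins of the hair follicle gave the lowest p-values against the negative control. KRT27, a type I keratin of the inner root sheath, read 3.70, 3.64 and 3.94 on the mimic arrays and 3.47, 3.27 and 3.47 on the negative control arrays. The difference was 0.36 ± 0.10, or 1.28-fold, with an unadjusted p = 0.0042 and an adjusted p = 0.158 in limma's test, at a level below 79.9% of genes. KRT31, a type I hair keratin, read 4.99, 5.36 and 5.19 on the mimic arrays and 4.90, 4.75 and 4.71 on the negative control arrays, a difference of 0.39 ± 0.13 (adjusted p = 0.238). KRT74, a type II keratin of the inner root sheath, stood lower by -0.34 ± 0.12 (adjusted p = 0.271), and KRT13, the mucosal type I keratin, higher by 0.23 ± 0.08 (adjusted p = 0.286). Arrays of the 2 groups did not overlap for 5 keratins, KRT27, KRT31 and KRT13 above and KRT23 and KRT7 below, which is 10.4% of the family, against 16.4% of all genes (8.42% above and 8.01% below). By class, the differences ran from -0.37 (KRT37) to 0.39 for hair keratins, from -0.34 to 0.36 for the inner root sheath keratins, from -0.17 (KRT10) to 0.25 (KRT77) for the cornifying keratins and from -0.22 (KRT4) to 0.26 (KRT24) for the mucosal class. The 5 basal and stratified keratins ran from -0.12 (KRT14) to 0.16 (KRT15).

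**Figure D2:**
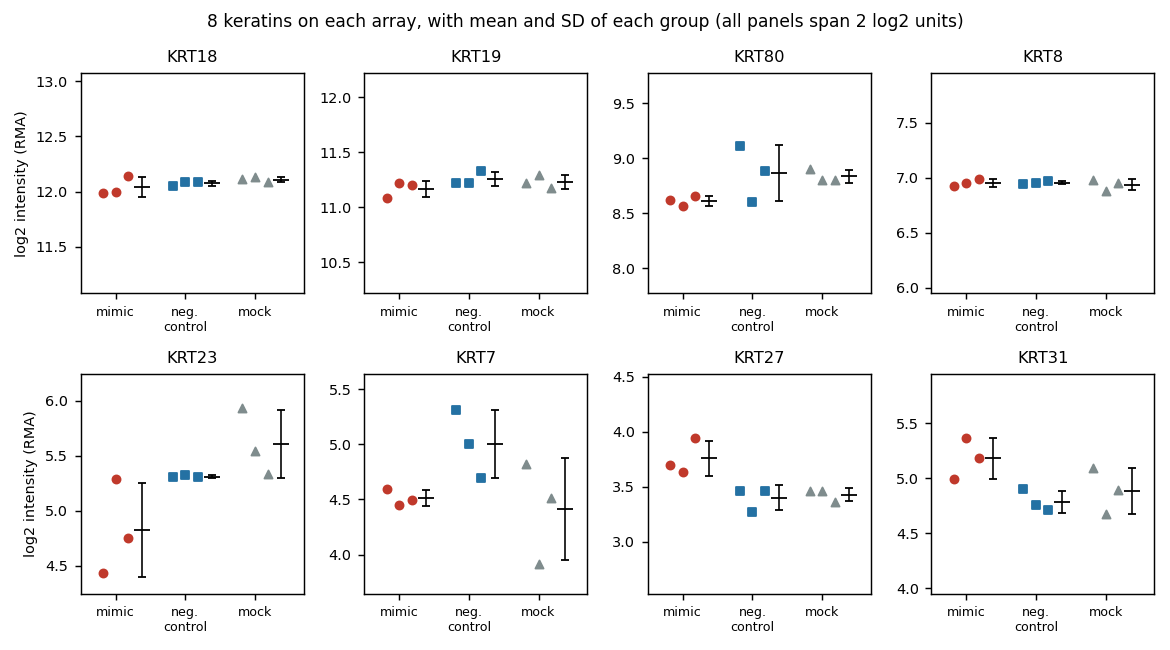
Level of 8 keratins on each array in the mimic, negative control and mock groups. The vertical axis is log2 intensity over a span of 2 units in every panel, points are arrays in the order of their replicate numbers, and the bar beside each group is its mean with the SD of 3 arrays. KRT18, KRT19 and KRT8 lie flat over the groups, while KRT23 scatters among the mimic and mock arrays and KRT7 among the arrays of both controls.

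Against mock, the control that received the lipid without RNA, no keratin passed either, with 45 genes called in all, or 0.302%. Unadjusted, 5 of 48 keratins had a p under 0.05, which is 10.4%, against 10.7% of all genes. Of these 2 were higher and 3 lower in the mimic arrays, as were 5.87% and 4.84% of all genes. This comparison shares its mimic arrays with the previous one. KRT23 had the lowest p: its mock arrays read 5.94, 5.55 and 5.33, all above the 3 mimic arrays. The difference was -0.78 ± 0.21, or 1.72-fold lower, with a 95% interval from -1.24 to -0.32, an unadjusted p = 0.00382 and an adjusted p = 0.200 in limma's test. Over 16 alternatives its adjusted p ranged from 0.111 to 0.469. Without mimic replicate 2 the difference was -1.01 on the log2 scale, and without mimic replicate 1 it was -0.58.

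KRT27 stood higher than mock by 0.33 ± 0.10 (adjusted p = 0.248), with mock arrays at 3.47, 3.46 and 3.36, and KRT31 by 0.29 ± 0.13 (adjusted p = 0.444), with mock arrays at 5.09, 4.67 and 4.89 that overlapped the mimic arrays. Without mock replicate 2 the KRT31 difference was 0.19. KRT78, a type II keratin of stratified epithelia, was lower by -0.28 ± 0.09 (adjusted p = 0.272) and KRT4 by -0.33 ± 0.13 (adjusted p = 0.425). KRT80 was lower by -0.22 ± 0.11 (adjusted p = 0.537). KRT7, in contrast, did not stand below mock: its mock arrays read 4.83, 3.91 and 4.51 and the difference was 0.10 ± 0.22, with an interval from -0.39 to 0.58 on the log2 scale. Without mock replicate 2 it was -0.16. The luminal keratins KRT8 (0.02 ± 0.06), KRT18 (-0.07 ± 0.07) and KRT19 (-0.06 ± 0.07) had intervals that spanned 0 and reached at most -0.22 on the low side and 0.16 on the high side. Arrays did not overlap for 6 keratins, 2 higher and 4 lower, or 12.5%, against 12.7% of all genes (7.21% higher and 5.44% lower). The median of the family was -0.05, and 31 of 48 had a negative difference, against 46.2% of all genes.

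The 2 controls, negative control RNA and mock, differ in whether any RNA was delivered. Between them limma called no gene, or 0.00%, while 622 genes had an unadjusted p under 0.05, and 1 keratin of 48 (2.08%) had an unadjusted p under 0.05, against 4.18% of genes (2.14% higher and 2.04% lower). It was KRT7, which stood higher in the negative control by 0.59 ± 0.22, or 1.5-fold, with an unadjusted p = 0.0229 and an adjusted p = 0.976 in limma's test. Mock replicate 2 alone read 3.91, and without it the difference was 0.34. The next were KRT33A (0.33 ± 0.18), KRT24 (-0.21 ± 0.12), KRT20 (-0.16 ± 0.09) and KRT32, a hair keratin (-0.26 ± 0.16), none of which passed. Each moved by over 1.5 times with 1 negative control array left out. KRT33A was 0.56 without negative control replicate 1 and 0.19 without replicate 2, and KRT24 was -0.10 without replicate 2. KRT20 was -0.06 and KRT32 -0.10 without replicate 1, and KRT32 was -0.44 without replicate 3. Without mock replicate 3, KRT24 was -0.13 and KRT32 -0.16. KRT23 had the largest negative difference over all arrays, -0.29 ± 0.21, which was -0.13 without mock replicate 1. KRT8, KRT18 and KRT19 differed by 0.02, -0.03 and 0.03. Arrays did not overlap for 3 keratins, KRT13, KRT23 and KRT78, all lower in the negative control, or 6.25%, against 8.10% of all genes (4.77% higher and 3.33% lower). The family median was -0.07, and 33 of 48 had a negative difference, against 47.2% of all genes.

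**Figure D3:**
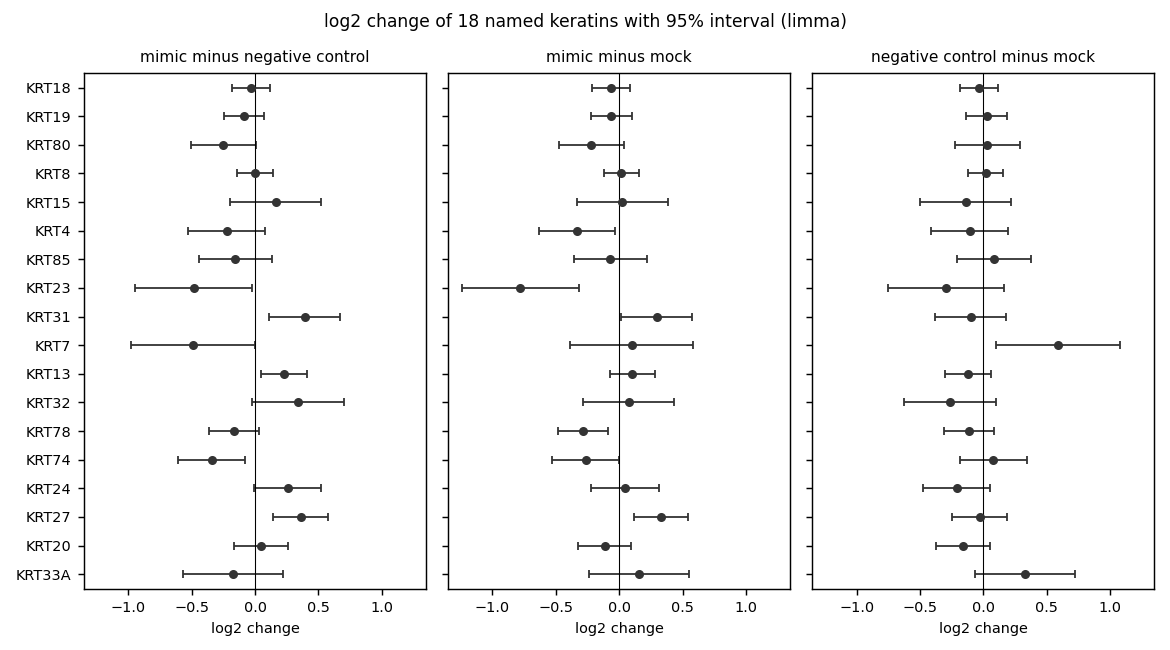
Differences of 18 keratins named by rule in the 3 comparisons, from the brightest keratin at the top to the dimmest at the bottom. The horizontal axis is the log2 difference, first group minus second, and bars are 95% intervals from limma. The intervals of KRT18, KRT19 and KRT8 are narrow and span 0 in all 3 panels, and that of KRT23 against mock reaches from -1.24 to -0.32.

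By type, the 26 type I keratins had a median difference of 0.02 against the negative control and -0.02 against mock, and the 21 type II keratins of -0.03 and -0.07. Of the type II keratins 15 were lower than the negative control and 16 lower than mock, and of the type I keratins 11 and 14. No type was tested as a set.

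Genes that work with keratins were also without a call in the comparisons of the mimic. Few genes of any kind passed there: 0.551% with the negative control as reference and 0.302% with mock as reference. At such shares, lists as short as these would often hold no call, so its absence does not set them apart. Of 18 listed genes of other intermediate filaments 10 were measured. LMNB1 (8.33), LMNA (7.81) and LMNB2 (7.57), the nuclear lamins, were the brightest of them, and VIM, the vimentin of mesenchymal cells, had a mean of 5.09, below the median of all genes. None of the 10 passed, and LMNB2 had the lowest p against the negative control (-0.19 ± 0.08, adjusted p = 0.394 in limma's test). Their median difference was -0.04 against the negative control and -0.08 against mock. Of 23 listed proteins that anchor or bind keratin filaments 17 were measured, with JUP, plakoglobin (9.96), and DSP, desmoplakin (9.08), the brightest. None passed, and FLG, filaggrin (0.15 ± 0.07, adjusted p = 0.394), had the lowest p against the negative control and FLG2 (-0.16 ± 0.07, adjusted p = 0.503) against mock. Of 19 listed regulators of keratin genes 15 were measured, and 0 passed. TFAP2B, an AP-2 transcription factor, came nearest: it stood at 9.05 ± 0.08 (SD, n = 3) in the mimic, 8.71 ± 0.02 in the negative control and 8.75 ± 0.02 in mock arrays, a difference of 0.33 ± 0.07 against the negative control (adjusted p = 0.0594) and of 0.30 ± 0.07 against mock (adjusted p = 0.142). GRHL1, a grainyhead-like factor of epithelia, differed by -0.48 ± 0.12 against the negative control (adjusted p = 0.145). Between the negative control and mock, the lowest p-values of the 3 lists were those of IFFO1 (-0.29 ± 0.12), HRNR, hornerin (-0.38 ± 0.11), and again GRHL1 (0.23 ± 0.12), each with an adjusted p = 0.976.

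Markers of other cell types did not pass in any comparison. Of all genes, 0.551% passed for the mimic against the negative control, 0.302% against mock and 0.00% between the controls. The part of these markers in the keratin values was not tested. Of 12 fibroblast markers 4 were measured, with means from 2.39 (DCN) to 4.90 (THY1), all below the median of all genes, and a mean over the list of 3.64 to 3.65 on the mimic, 3.52 to 3.71 on the negative control and 3.68 to 3.88 on the mock arrays. Of 10 leukocyte markers 5 were measured, with 1, CD68 (6.42), above that median, and list means of 4.34 to 4.43 on the mimic, 4.37 to 4.49 on the negative control and 4.40 to 4.50 on the mock arrays. The lowest p against the negative control was that of FBN1 among the fibroblast markers (0.13 ± 0.07, adjusted p = 0.503) and of LYZ among the leukocyte markers (0.15 ± 0.08, adjusted p = 0.456). The 4 basal and myoepithelial markers averaged 5.32 to 5.38 on the mimic, 5.19 to 5.31 on the negative control and 5.20 to 5.46 on the mock arrays, and none passed. OXTR, the oxytocin receptor, was higher in the mimic than in the negative control by 0.37 ± 0.15 (adjusted p = 0.364). It was lower in the negative control than in mock by -0.42 ± 0.15 (adjusted p = 0.976). The mimic differed from mock by only -0.05 ± 0.15 (adjusted p = 0.920).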

How the data were processed

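Total RNA of 9 samples was labelled with the FlashTag biotin kit, per the labels' protocols, and measured on 9 one-colour arrays. That kit is known for labelling small RNA, and its effect on the intensities of a gene expression array was not tested. The deposited log2 intensities were made by the authors with RMA, per the submitters' processing notes; RMA in its standard form corrects background, quantile-normalizes arrays and summarises probes. Its version, probe annotation and genome build are not given in sources used here. Deposited log2 values were used without further normalization. The annotation names 16098 of 53617 probesets, each with 1 symbol, which gave 14884 genes; 779 had several probesets. RefSeq (GRCh38.p14) matched all 16098 identifiers and changed 0 symbols. In R 4.3.3, limma 3.58.1 (lmFit, eBayes) was fitted over all 9 arrays with 1 mean per group and 6 residual degrees of freedom, and tested on simulated data. P-values are two-sided, adjusted by Benjamini-Hochberg over all genes, and called under 0.05. The smallest p that exact permutation allows for 3 against 3 is 0.1. Errors are limma's moderated standard errors. Named keratins are KRT8, KRT18, KRT19, those with a mean above the median gene or past the threshold, and in each comparison the 5 with the lowest p and both extremes; each partner list adds its gene with the lowest p; other genes named as examples were chosen after their values were seen. The list of olfactory receptors, meant to mark the low end of the array, had 1 named gene, OR4C45, with a mean of 2.70, and was not used further. In 822 genes, KRT5 among them, the 3 arrays of some group carry the same deposited value. The members and lists were chosen with earlier results of these data known. The effect of 17 alternatives is given in the closing section.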

Additional observations from a re-analysis of the deposited data

How the results depend on the processing

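No keratin was called in any of the 3 comparisons under the 17 alternatives, and none of 885 values of the 18 named keratins passed. The number of genes called in all did depend on the setting. For the mimic against the negative control it was 82, and 16 with the replicate block, 8 with only the 6 arrays of both groups, 263 with only genes above the median, 169 with a trended, robust prior, 15 without moderation and 7 to 121 with 1 array left out. For the mimic against mock it was 45, and 3, 1, 102, 66 and 1 under the same settings in that order, and 1 to 10 with 1 array left out. For the negative control against mock it was 0, and 1 without moderation. Quantile normalization gave 119, 34 and 0 genes in the 3 comparisons in that order, arrays centred on their median 111, 43 and 0, and the mean of the probesets of a gene 79, 43 and 0. The causes were not tested. The second and the leave-one-out settings use fewer arrays, and the third tests fewer genes. The replicate block changed no keratin call. Whether replicate numbers mark pairs of arrays was not settled. Deviations of same-numbered arrays correlated at -0.06 to 0.13, and those of other arrays between groups at -0.18 to 0.16. For 6 of 9 arrays the best correlation was with an array of their own number. Small log2 differences turned sign with 1 array left out. Against the negative control the mimic differences then spanned -0.019 to 0.015 for KRT8 and -0.054 to 0.11 for KRT20. Against mock they spanned -0.011 to 0.039 for KRT8, -0.13 to 0.23 for KRT15, -0.024 to 0.12 for KRT24, -0.16 to 0.30 for KRT7 and -0.15 to 0.021 for KRT85. For the negative control against mock the spans were -0.20 to 0.0056 for KRT31, -0.010 to 0.039 for KRT8, -0.0079 to 0.060 for KRT19, -0.091 to 0.16 for KRT80, -0.036 to 0.17 for KRT85, -0.25 to 0.022 for KRT4 and -0.063 to 0.037 for KRT27. Quantile normalization gave -0.015 for KRT8 and -0.0020 for KRT15 in the mimic against mock, and -0.0069 for KRT8 in the negative control against mock. The other KRT18 probeset, tried after seeing the data, gave 0.0059 in the negative control against mock. Restricting the fit to genes above the median leaves 7 keratins and gives no value for the others.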
